A study of Homo sapiens with 32 samples.

Results

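Nuclear pore proteins and the karyopherins that ferry cargo through the pore were followed in newly made and total RNA of 7 human B-lymphoblastoid cell lines. Members were chosen by gene symbol alone. Pore proteins carried NUP and a number, and transport receptors carried KPNA, KPNB, IPO, XPO or TNPO. A gene entered when the platform gave its symbol, and no other, to a transcript cluster, the set of array probes assigned to a gene. This gave 38 genes, 19 pore proteins and 19 transport receptors, of 14207 genes with such a cluster among 21788 clusters on the array. Another 10 clusters joined a member symbol with that of a different gene and were left out, so NUP62, KPNA4, IPO7, IPO11 and TNPO2 were not analysed here.

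The nuclear pore complex is a ring of nucleoporins set into the nuclear envelope, with a scaffold of outer and inner rings and a central channel lined by phenylalanine-glycine repeats. Importins and exportins bind these repeats and carry proteins and some RNAs through the channel, and the GTPase Ran sets the direction by loading exportins in the nucleus and emptying importins there. Dividing cells such as lymphoblasts build new pores in interphase and take them apart and rebuild them around each mitosis.

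The lines were GM07019, GM07029, GM10835, GM12812, GM12813, GM12814 and GM12815, HapMap lines from a cell repository, and all of them received 200 µM 4-thiouridine (4sU) for 2 h, with no unlabelled group. RNA made in that time carries 4sU, and this nascent RNA was separated from the total RNA of the same culture and hybridized to its own exon array. GM12813, GM10835 and GM07029 were grown as 3 independent cultures each and the other 4 lines as 1 culture each, and the 3 GM12813 cultures were hybridized again as technical duplicates, which made 32 arrays, 16 per fraction, from 13 cultures. The study calculated mRNA half-life from the nascent/total ratio and asked whether it differs between the 3 lines with replicates.

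All values are log2. The nascent/total ratio was the nascent minus the total signal of a culture, centred on the median of its tested clusters, so a value below 0 means a smaller nascent share of the signal than the median cluster had, not less nascent than total RNA. Signals of each fraction were shifted to a common array median. Array medians as deposited were 7.58 to 7.92 in nascent RNA and 6.74 to 6.95 in total RNA. Background was a mean signal of 6.40 over all 32 arrays, the 95th percentile over 216 clusters of olfactory receptors, which serve the nasal epithelium. The 14167 clusters above it were tested. This single cut pools both fractions, so with the lower medians of total arrays it is stricter for total than for nascent RNA. B cell markers lay above background for 8 of 8 genes with a cluster, among them CD79A, PAX5 and MS4A1, whereas the T cell markers CD3D, CD3E and CD3G, the monocyte markers CD14 and LYZ and the epithelial marker EPCAM lay below it. Above background were also 3 of 12 T and NK cell markers (CD7, NKG7, PRF1), 2 of 8 monocyte and granulocyte markers (ELANE, MNDA) and 6 of 11 fibroblast and epithelium markers, KRT8 and VIM included. In such bulk samples fewer cells of a type and less RNA per cell cannot be told apart.

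Of the 38 members, 37 were above background. The exception was NUP210L, a paralogue of the membrane nucleoporin NUP210, whose signal over 13 cultures ran from 4.47 through a median of 4.73 to 4.88 in nascent RNA and from 3.73 through 3.97 to 4.09 in total RNA. Just inside the limit stood NUP62CL, a gene related to the channel protein NUP62, with a mean over all arrays of 6.52.

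Over 7 lines, most pore and transport genes had less nascent RNA, for their total RNA, than the median cluster. The ratio was lower for 24 of 37 members, higher for 3 and did not pass the test for 10 (limma, Benjamini-Hochberg adjusted p under 0.05 over all tested clusters). The same test called 63.5% of all tested clusters, 31.7% lower and 31.7% higher, against 64.9% of members lower and 8.11% higher. Among pore proteins 14 of 18 were lower and NUP153 was higher, with a median ratio of -0.27, and among transport receptors 10 of 19 were lower and IPO13 and TNPO3 were higher, with a median of -0.26. Of the 27 members called, 17 had the same sign in all 7 lines. A test of the mean against 0 favours such agreement, and the share among all called clusters was not determined. More than 1 log2 unit below the median cluster lay 2 pore proteins (NUP62CL and NUP107) and 1 receptor (XPO4). The nascent signal of NUP62CL was below background in 6 of 7 lines. The share of all tested clusters that far below was not determined. The count of lower pore proteins fell to 8 without the line GM07019, to 9 without GM12814, and to 7 when both fractions had to lie above background, while the count of lower receptors stayed at 10 in each of these. That filter kept 17 of the 18 pore proteins and recentred ratios on the median of the 12554 clusters left, so its zero point differs. When ratios were left uncentred, the pore and receptor medians were 0.50 and 0.51 and the median over all clusters was 0.77, so each direction given here is relative to the median cluster.

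**Figure D1:**
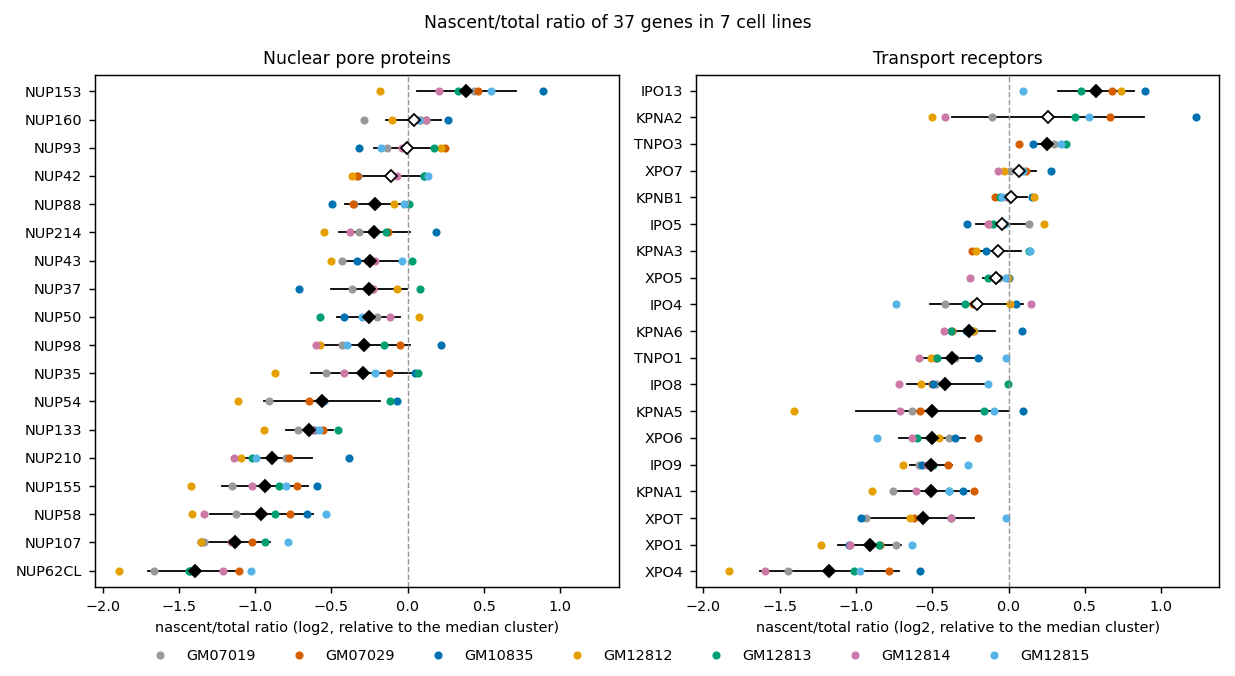
Nascent/total ratio (log2, relative to the median cluster, x axis) of 18 pore proteins and 19 transport receptors. Coloured points are the 7 lines, diamonds and bars are the mean and SD over lines, filled where the mean passed the test against 0 and open where it did not. Means run from -1.39 for NUP62CL to 0.38 for NUP153 among pore proteins, and from -1.18 for XPO4 to 0.57 for IPO13 among receptors.

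The Y complex forms the outer rings of the pore scaffold, and 4 of the 5 tested members in it were lower. Pathway genes with other names are not in this count and are given further below. NUP107, which gives the complex its other name, had a ratio of -1.35 in the lowest line (GM10835), a median of -1.16 and a highest value of -0.78 (GM12815). Its nascent signal ran from 8.68 (GM12814) through 8.89 to 9.19 (GM07029), and its total signal from 9.02 (GM12815) through 9.29 to 9.52 (GM10835). All 7 lines were thus well below 0, with a mean of -1.13 ± 0.23 (SD, n = 7, limma adjusted p = 1e-06), a 2.20-fold deficit relative to the median cluster, and the call held under all 17 alternative settings. NUP133, its partner in the stem of the Y, was at -0.64 ± 0.15 and below 0 in 7 of 7 lines (limma adjusted p = 2e-05). NUP37 and NUP43, which sit on the arms of the Y, averaged -0.25 ± 0.25 and -0.25 ± 0.19, each below 0 in 6 of 7 lines. NUP160, the long protein of an arm, averaged 0.04 ± 0.18 with lines on both sides of 0 and missed the threshold (limma adjusted p = 0.701). The 5 members in this complex therefore covered a span from -1.13 to 0.04.

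In the inner ring, which anchors the channel proteins, 2 of 3 measured genes were lower. NUP155 ran from -1.42 (GM12812) through a median of -0.85 to -0.60 (GM10835), with nascent signals of 9.49 to 10.38 and total signals of 9.67 to 10.38, and averaged -0.94 ± 0.28 (limma adjusted p = 1e-05, n = 7). NUP35, which ties the ring to the membrane, averaged -0.29 ± 0.34 and was above 0 in 2 lines. This call ended in 6 of 17 settings, and its sign turned in 1 more, without centring. NUP93, the linker between the ring and the channel, averaged -0.00 ± 0.22 (limma adjusted p = 0.969), 3 lines above and 4 below 0.

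Both channel proteins with a cluster, NUP58 and NUP54, which form the channel together with NUP62, were lower. NUP58 ran from -1.41 (GM12812) through a median of -0.87 to -0.54 (GM12815). Its nascent signal lay between 9.65 and 10.46 and its total signal between 9.89 and 10.40. No line reached 0, and the mean was -0.96 ± 0.34 (limma adjusted p = 2e-05, n = 7). NUP54 averaged -0.56 ± 0.38, also below 0 in 7 of 7 lines, from -1.11 in GM12812 to -0.07 in GM10835. The membrane nucleoporin NUP210 had ratios of -1.14 (GM12814) to -0.39 (GM10835) and averaged -0.89 ± 0.26. NUP62CL had the lowest mean of the members, -1.39 ± 0.31, with every line between -1.89 (GM12812) and -1.03 (GM12815). Its nascent signal, 5.98 to 6.45, was below background in 6 of 7 lines, and its total signal, 6.25 to 7.13, in 1 line, so its ratio rests on a nascent signal that was not measured above background.

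The 6 members of the pore's faces, filaments and basket averaged between -0.29 and 0.38. NUP98, a mobile repeat protein found on both faces of the pore, ran from -0.60 (GM12814) through a median of -0.40 to 0.22 (GM10835) and averaged -0.29 ± 0.30 (limma adjusted p = 0.0307). Its nascent signal lay between 9.96 and 10.56, and its total signal between 9.25 in GM10835 and 9.97. NUP88 and NUP214, which dock the messenger RNA export machinery on the cytoplasmic side, averaged -0.22 ± 0.19 and -0.22 ± 0.23, and NUP42 on the same filaments averaged -0.11 ± 0.23 without passing the test. The call of NUP214, at an adjusted p of 0.0498 in limma, ended in 12 of 17 settings, and those of NUP98, NUP88, NUP37 and NUP35 in 6 or 7. In 1 further setting, without centring, the sign of each of these genes turned. In the nuclear basket the 2 members went in opposite directions, and TPR, a basket protein outside the symbol rule, was higher at 0.91 ± 0.47. NUP153, the basket anchor, ran from -0.18 (GM12812) through a median of 0.43 to 0.88 (GM10835) and was higher, at 0.38 ± 0.33 (limma adjusted p = 0.0101), with nascent signals of 11.08 to 11.80 and total signals of 9.59 to 10.57. NUP50, a mobile basket protein that helps release importin alpha cargo, was lower at -0.26 ± 0.21. Among the pore members NUP153 was thus the single one above the median cluster by this test, in 6 of 7 lines. Its call ended when nascent and total arrays were treated as unpaired, a setting that also centred each fraction separately.

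Among the 6 exportins, 4 were lower and none of the 6 was called higher. XPO4, which carries the translation factor eIF5A out of the nucleus, ran from -1.83 (GM12812) through a median of -1.02 to -0.58 (GM10835). Its nascent signal ran from 8.55 (GM12812) through 9.22 to 9.66 (GM07029), and its total signal from 8.77 (GM10835) through 9.53 to 9.82 (GM07019). The mean of -1.18 ± 0.46 was the lowest of the receptors (limma adjusted p = 2.4e-05, n = 7), and its SD was also wider than that of the other exportins. XPO1, also called CRM1, the general exportin for proteins with a leucine-rich export signal, ran from -1.23 (GM12812) through -0.85 to -0.63 (GM12815), with nascent signals of 9.9996 to 10.97 and total signals of 10.36 to 10.94. It averaged -0.91 ± 0.20 (limma adjusted p = 4e-06), so its 7 lines stayed close together and far from 0. XPOT, the transfer RNA exportin, averaged -0.56 ± 0.34, and XPO6, the exportin of actin with profilin, -0.50 ± 0.22 with lines between -0.86 (GM12815) and -0.20 (GM07029). XPO5, the carrier of microRNA precursors, averaged -0.08 ± 0.09 and XPO7 0.07 ± 0.11, and neither passed the test.

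Importin alpha proteins are adaptors that recognise the classical import signal and bind importin beta. Of the 5 measured, KPNA1 at -0.51 ± 0.25, KPNA5 at -0.50 ± 0.50 and KPNA6 at -0.26 ± 0.17 were lower, and KPNA3 at -0.07 ± 0.15 did not pass. KPNA2, the adaptor tied to proliferating cells, ran from -0.50 (GM12812) through a median of 0.43 to 1.23 (GM10835), with 4 lines above and 3 below 0. Its nascent signal ran from 7.97 (GM07029) through 8.23 to 8.88 (GM12815), and its total signal from 6.23 (GM10835) through 7.55 to 7.86 (GM12812). The mean of 0.26 ± 0.63 did not pass (limma adjusted p = 0.239), with the widest SD of the 37 members, and its total signal in GM10835 was below background. KPNB1, the importin beta that the adaptors share, stayed between -0.09 (GM07029) and 0.17 (GM12812) with a median of -0.01, nascent signals of 10.72 to 11.16 and total signals of 9.84 to 10.42. At 0.02 ± 0.10 it did not pass (limma adjusted p = 0.855), and its lines were among the tightest of the members.

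The importins and transportins that bind cargo without an adaptor were mixed. IPO13, a carrier that works in both directions, ran from 0.09 (GM12815) through a median of 0.57 to 0.89 (GM10835), above 0 in 7 of 7 lines, with nascent signals of 8.54 to 9.08 and total signals of 7.21 to 7.68. It averaged 0.57 ± 0.25 (limma adjusted p = 0.000304, n = 7) and was the highest member, called under all 17 alternative settings. TNPO3, the importer of SR splicing factors, ran from 0.07 (GM07029) through 0.26 to 0.37 (GM12813) and averaged 0.25 ± 0.11 (limma adjusted p = 0.00902). The TNPO3 call ended when arrays were treated as unpaired, with each fraction centred separately. TNPO1, the importer of hnRNP A1 and other RNA-binding proteins, went the other way, from -0.59 (GM12814) through -0.47 to -0.02 (GM12815), with a mean of -0.37 ± 0.20 (limma adjusted p = 0.00215). Its call ended when a trend of the ratio with signal was removed. IPO9, a histone importer, averaged -0.51 ± 0.14, and IPO8, which has been tied to Argonaute and SMAD import, averaged -0.41 ± 0.25, each below 0 in 7 of 7 lines. IPO4 and IPO5, importers of ribosomal proteins and histones, averaged -0.21 ± 0.31 and -0.04 ± 0.17 and did not pass. The 2 transportins thus stood on opposite sides of the median cluster in all 7 lines.

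Pore proteins and transport receptors had nearly the same ratio when each was summarised by its median. The pore median minus the receptor median was -0.01 from mean ratios, and 0.0047 without NUP62CL, whose nascent signal was below background. Taken line by line it was -0.08 in GM07019, -0.06 in GM07029, -0.21 in GM10835, -0.10 in GM12812, 0.03 in GM12813, 0.02 in GM12814 and -0.24 in GM12815, with a mean of -0.09 ± 0.10 (SD, n = 7). The pore median was thus lower in 5 of 7 lines, with a mean difference no larger than its SD, and members are not replicates, so no test was run. After a trend of the ratio with signal was removed, the pore median was -0.28 and the receptor median -0.11, a difference of -0.17. The lower calls of TNPO1, KPNA6, XPO6, NUP98, NUP88 and NUP214 over 7 lines ended with this trend removed.

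**Figure D2:**
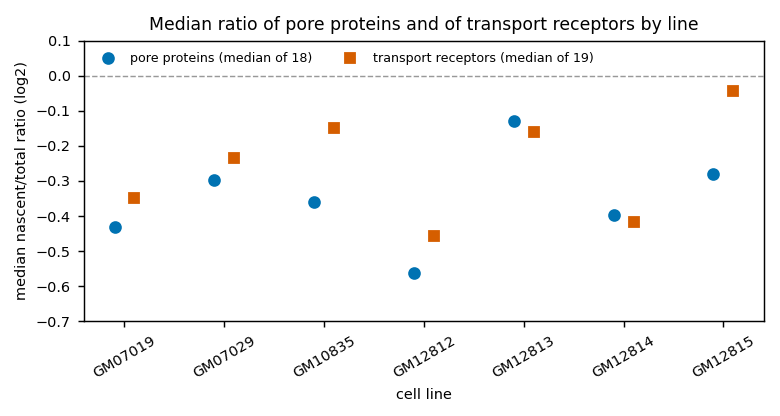
Median nascent/total ratio (log2, y axis) of 18 pore proteins (circles) and 19 transport receptors (squares) in each of 7 lines (x axis). Pore medians run from -0.56 in GM12812 to -0.13 in GM12813, receptor medians from -0.46 in GM12812 to -0.04 in GM12815, and the pore median is the lower of the pair in 5 of 7 lines.

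Of the 7 lines, GM12812, a single culture, held the lowest ratio for 10 of 18 pore proteins and for 6 of 19 receptors. Together that is 43.2% of members, against 23.3% of all tested clusters. GM12812 also held the lowest nascent signal for 16 of 37 members, 43.2%, against 16.7% of all clusters, and the lowest total signal for 9, 24.3% against 12.2%. At the other end, GM10835 held the highest ratio for 14 of 37 members, 37.8% against 24.6% of all clusters, together with the lowest total signal for 15, 40.5% against 23.1%, and the highest for 7, 18.9% against 21.2%. Among pore proteins GM10835 was lowest in total RNA for 6 and highest for 6 of 18, and among receptors lowest for 9 and highest for 1 of 19. With 1 culture of GM12812 its own spread is not known.

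**Figure D3:**
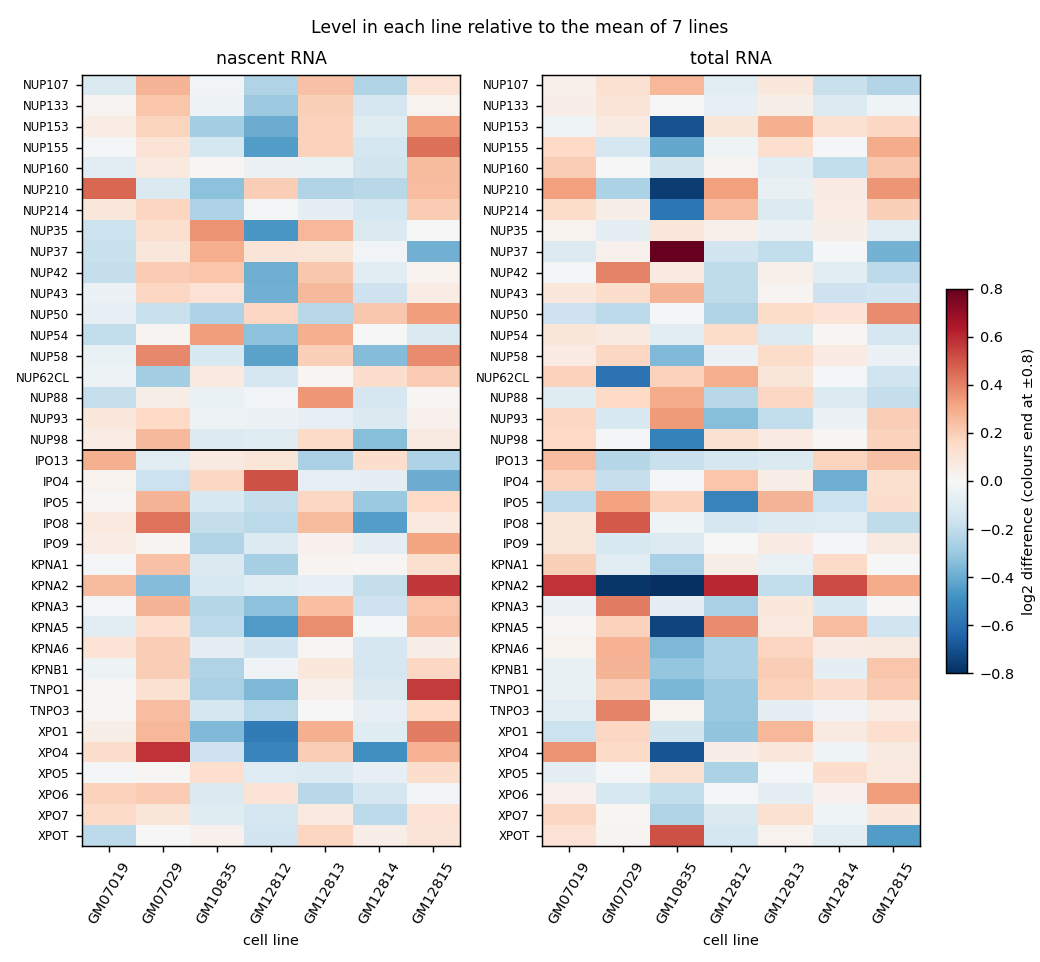
Difference of each member's log2 signal in a line from its mean over 7 lines, for nascent RNA (left) and total RNA (right), with pore proteins above and transport receptors below the black line. In total RNA, GM10835 stands out for low KPNA2, KPNA5, NUP153, NUP210 and XPO4 and for high NUP37 and XPOT, and in nascent RNA the GM12812 and GM12814 columns are mostly below the mean.

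Between the 3 lines with 3 cultures each, 28 members differed in nascent RNA, 22 in total RNA and 11 in the ratio. In nascent RNA 28 of 37 members differed (11 pore proteins and 17 receptors), against 55.8% of all tested clusters. In total RNA 22 of 37 differed (10 pore proteins and 12 receptors), against 61.1% of all clusters. In the ratio 11 of 37 differed (7 pore proteins and 4 receptors), against 25.4% of all clusters (limma moderated F test, adjusted p under 0.05 for all 3). As shares of the members these are 75.7%, 59.5% and 29.7%. All 3 measures differed for 6 genes (IPO8, KPNA5, KPNA6, NUP153, NUP210 and NUP93) and none of the 3 passed for 4 (NUP160, NUP35, NUP43 and NUP50). The share of all tested clusters with either pattern was not determined. Cultures of a line had a median SD of 0.07 in nascent RNA and 0.13 in total RNA for pore proteins and of 0.06 and 0.10 for receptors.

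Among members that differed, more were lowest in GM10835 than highest there, and the difference between pore proteins and receptors in this was not tested. Of the 28 members that differed in nascent RNA, 22 (78.6%) were lowest in GM10835, against 51.6% of all clusters that differed. Of the 22 in total RNA, 15 (68.2%) were lowest there, against 41.3% of such clusters. In nascent RNA, GM10835 minus GM07029 was lower for 23 members and higher for 3, against 29.8% and 22.8% of all clusters. GM12813 minus GM10835 was higher for 18 and lower for 3, against 25.5% and 17.0%. GM12813 minus GM07029 was lower for 8 and higher for 1, against 10.5% and 10.1%. In total RNA, GM10835 minus GM07029 was lower for 17 members and higher for 4, against 25.8% and 24.3% of all clusters, and GM12813 minus GM10835 was higher for 14 and lower for 3, against 22.8% and 21.5%. GM12813 minus GM07029 was higher for 3 and lower for 4 in total RNA, against 16.0% and 16.4%. For GM10835 minus GM07029 in total RNA, 7 pore proteins were lower and 3 higher, and 10 receptors were lower and 1 higher. In nascent RNA, 9 pore proteins were lower and 2 higher, and 14 receptors were lower and 1 higher. The contrasts share cultures, so their counts are not independent. Relative to the mean of 7 lines, the median member stood at 0.09, -0.12 and 0.16 in nascent RNA of GM12813, GM10835 and GM07029 and at 0.06, -0.11 and 0.05 in total RNA. In GM10835 the median pore protein stood at -0.04 in nascent RNA and at -0.0063 in total RNA, and the median receptor at -0.13 and -0.18, so the median pore protein was close to its mean over lines in total RNA. The median of 22 proliferation genes stood at 0.21, -0.09 and 0.13 in nascent RNA and at 0.10, 0.06 and 0.07 in total RNA of the same lines. Their part in the line differences was not tested.

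**Figure D4:**
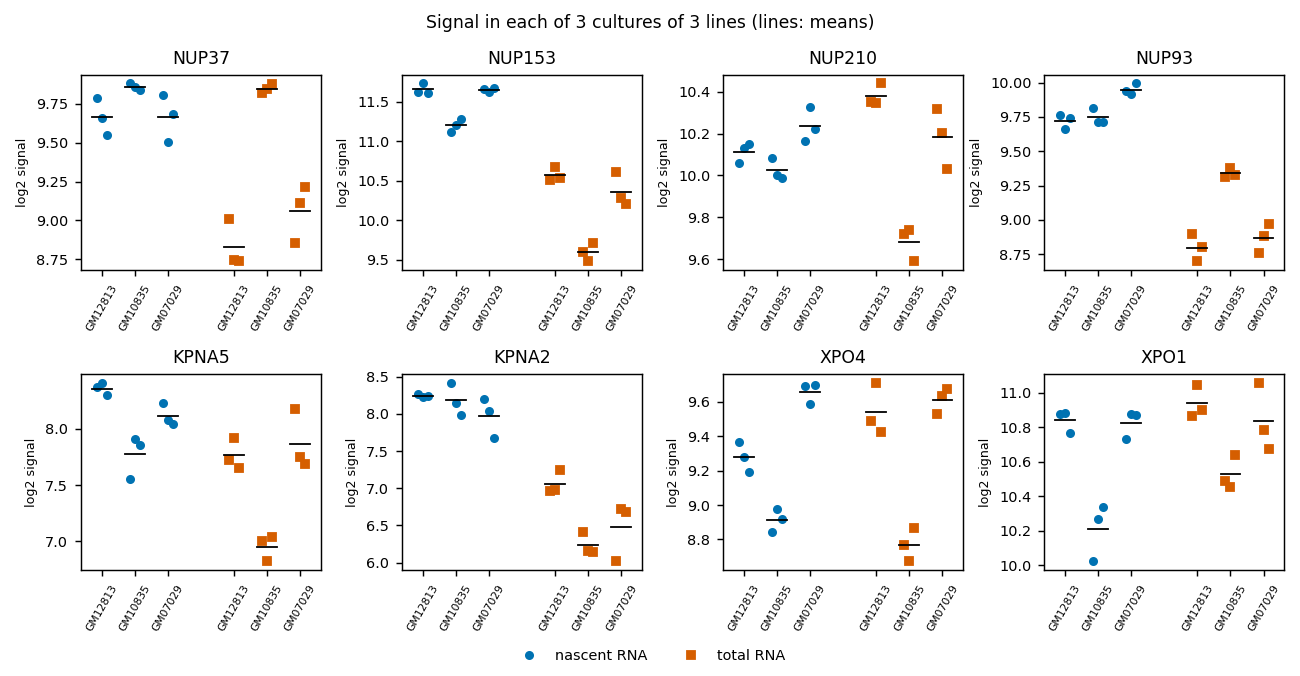
Log2 signal (y axis, not starting at 0 and different for each gene) of 8 members in each of 3 cultures of GM12813, GM10835 and GM07029, in nascent RNA (circles) and total RNA (squares), with line means as bars. GM10835 is lowest in total RNA for NUP153, NUP210, KPNA5, KPNA2, XPO4 and XPO1 and highest for NUP37 and NUP93.

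NUP37 and NUP93 were highest in GM10835 in total RNA. NUP37 had total signals of 9.01, 8.75 and 8.74 in GM12813, 9.82, 9.84 and 9.88 in GM10835, and 8.86, 9.11 and 9.22 in GM07029, the widest range of the members (1.02, limma adjusted p = 1.7e-05). No culture of the other lines reached the lowest culture of GM10835. In nascent RNA the lines did not pass for NUP37, and the ratio was 0.08 ± 0.10 in GM12813, -0.71 ± 0.04 in GM10835 and -0.23 ± 0.40 in GM07029 (SD, n = 3 each, limma adjusted p = 0.0181). The ratio of GM07029 spread from -0.51 to 0.23 over its cultures. GM12813 minus GM10835 was 0.80 (SE 0.17, limma adjusted p = 0.0078), and the call ended in 5 of 17 settings. NUP93 had mean total signals of 8.80 ± 0.10 in GM12813, 9.34 ± 0.03 in GM10835 and 8.87 ± 0.11 in GM07029, and ratios of 0.17 ± 0.10, -0.32 ± 0.05 and 0.25 ± 0.21 in the same lines (limma adjusted p = 0.0138). XPOT was likewise higher in total RNA of GM10835, at 10.51 ± 0.20, than in GM07029, at 10.02 ± 0.26 (limma adjusted p = 0.027), though its call between the 3 lines ended in 6 of 16 settings. NUP62CL was higher in total RNA of GM10835, at 7.03 ± 0.11, than in GM07029, at 6.25 ± 0.20, where its signal was below background (limma adjusted p = 0.00038).

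NUP153 and NUP210 had less total RNA in GM10835 with a smaller change in nascent RNA. NUP153 had total signals of 10.51, 10.68 and 10.53 in GM12813, 9.59, 9.48 and 9.71 in GM10835, and 10.61, 10.28 and 10.20 in GM07029. Its nascent signals were 11.63, 11.73 and 11.61 in GM12813, 11.12, 11.21 and 11.28 in GM10835, and 11.66, 11.62 and 11.68 in GM07029. GM10835 thus lay below the other lines in both fractions with no overlap, and GM12813 minus GM10835 was 0.98 (SE 0.11) in total RNA and 0.45 (SE 0.06) in nascent RNA. Its ratio was 0.33 ± 0.03 in GM12813, 0.88 ± 0.14 in GM10835 and 0.46 ± 0.11 in GM07029 (SD, n = 3 each, limma adjusted p = 0.0137). NUP210 had mean total signals of 10.38 ± 0.05 in GM12813, 9.68 ± 0.08 in GM10835 and 10.19 ± 0.15 in GM07029 (limma adjusted p = 9.6e-05). Its nascent means were closer, 10.11 ± 0.05, 10.02 ± 0.05 and 10.24 ± 0.08 in the same lines (limma adjusted p = 0.025). The NUP210 ratio was -1.10, -0.96 and -0.999 in GM12813, -0.41, -0.43 and -0.32 in GM10835, and -0.87, -0.67 and -0.79 in GM07029, with no overlap between GM10835 and the others. It was the only one of the 11 members called in the ratio that passed under all 17 alternative settings (limma adjusted p = 0.005).

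Among receptors the adaptors KPNA5 and KPNA6 differed in all 3 measures. KPNA5 had total signals of 7.72, 7.92 and 7.66 in GM12813, 7.00, 6.83 and 7.04 in GM10835, and 8.17, 7.75 and 7.69 in GM07029 (limma adjusted p = 0.000172). Its nascent signals were 8.37, 8.41 and 8.30 in GM12813, 7.56, 7.91 and 7.86 in GM10835, and 8.23, 8.08 and 8.05 in GM07029 (limma adjusted p = 0.00181). GM10835 was lowest in both without overlap, while its ratio was the highest, 0.09 ± 0.30, against -0.16 ± 0.09 in GM12813 and -0.58 ± 0.10 in GM07029 (limma adjusted p = 0.0191). The KPNA6 ratio was -0.38 ± 0.05 in GM12813, 0.09 ± 0.09 in GM10835 and -0.37 ± 0.08 in GM07029 (limma adjusted p = 0.0107), and the call ended in 1 of 17 settings. KPNA2 had total signals of 6.96, 6.97 and 7.24 in GM12813, 6.41, 6.15 and 6.14 in GM10835, and 6.02, 6.73 and 6.67 in GM07029. The total signal of KPNA2 was below the background of 6.40, a cut set over both fractions, in 2 of 3 GM10835 cultures and in GM07029 replicate 1. The size of a difference from these lines is therefore not given. The KPNA2 ratio did not pass between lines (limma adjusted p = 0.107), and its value of 1.46 in GM07029 replicate 1 rests on a total signal below background, while the other cultures of this line had 0.52 and 0.02.

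Of the 6 exportins, 5 differed in nascent RNA, 4 in total RNA and 1 in ratio, which is 83.3%, 66.7% and 16.7%, against 55.8%, 61.1% and 25.4% of all tested clusters. XPO4 had nascent signals of 9.36, 9.28 and 9.19 in GM12813, 8.85, 8.98 and 8.92 in GM10835, and 9.69, 9.59 and 9.70 in GM07029, the widest range of the members in nascent RNA (0.74, limma adjusted p = 1.5e-05). Its total means were 9.54 ± 0.15 in GM12813, 8.77 ± 0.10 in GM10835 and 9.61 ± 0.08 in GM07029 (limma adjusted p = 1.8e-05). XPO1 had nascent signals of 10.88, 10.88 and 10.77 in GM12813, 10.02, 10.27 and 10.34 in GM10835, and 10.73, 10.88 and 10.87 in GM07029. GM10835 thus lay below the other lines in nascent RNA for both exportins, with no overlap. The XPO1 total means were 10.94 ± 0.10 in GM12813, 10.53 ± 0.10 in GM10835 and 10.84 ± 0.20 in GM07029 (limma adjusted p = 0.0116), a call that ended in 3 of 16 settings. The ratio of neither passed between lines (limma adjusted p = 0.0858 for XPO4 and 0.368 for XPO1). XPO6 was the exportin called in the ratio, at -0.60 ± 0.05 in GM12813, -0.35 ± 0.04 in GM10835 and -0.20 ± 0.02 in GM07029 (limma adjusted p = 0.0269), a call that ended in 8 of 17 settings.

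The channel protein NUP58 and the receptors KPNA3, IPO8 and KPNB1 were lowest in GM10835 in nascent RNA. NUP58 nascent means were 10.27 ± 0.05 in GM12813, 9.95 ± 0.04 in GM10835 and 10.46 ± 0.04 in GM07029 (limma adjusted p = 3.6e-05). KPNA3 nascent means were 10.56 ± 0.04, 10.09 ± 0.04 and 10.59 ± 0.07 in the same lines (limma adjusted p = 3.1e-05). IPO8 nascent means were 9.23 ± 0.09, 8.79 ± 0.11 and 9.42 ± 0.04 (limma adjusted p = 7.8e-05). KPNB1, whose ratio did not differ by this test (limma adjusted p = 0.274), had nascent means of 11.05 ± 0.03, 10.72 ± 0.02 and 11.16 ± 0.13 and total means of 10.35 ± 0.05, 9.84 ± 0.06 and 10.42 ± 0.12, so both fractions were lower in GM10835. IPO4, IPO13, XPO5 and NUP54 were the members whose nascent signal differed and was highest in GM10835. NUP54 also differed in ratio, at -0.12 ± 0.07 in GM12813, -0.07 ± 0.15 in GM10835 and -0.64 ± 0.35 in GM07029 (limma adjusted p = 0.0371), but this call ended in 12 of 17 settings and that of IPO8 in 11.

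**Figure D5:**
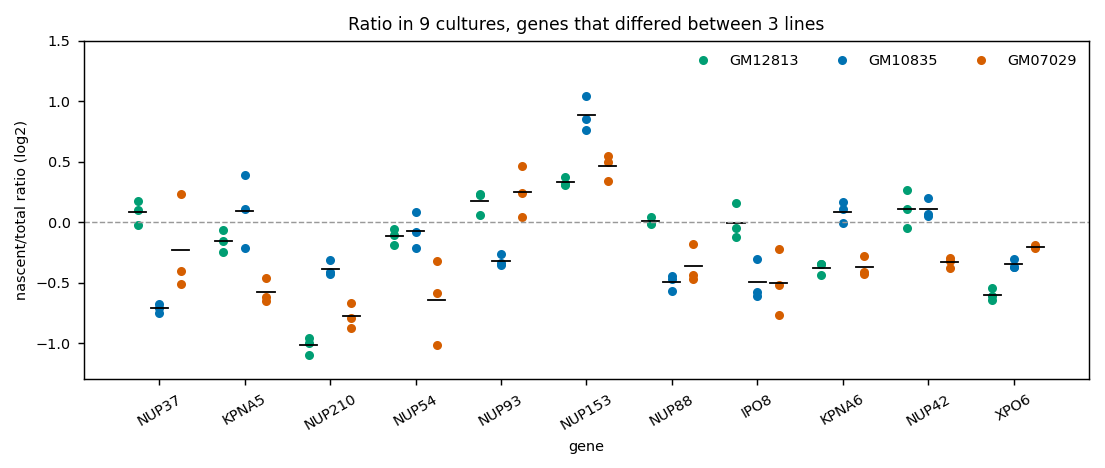
Nascent/total ratio (log2, y axis) in each of 9 cultures for the 11 members (x axis) that differed between GM12813, GM10835 and GM07029, with line means as bars. GM10835 lies apart from both other lines for NUP37, NUP210, NUP153, NUP93 and KPNA6, and between them without overlap for XPO6. For NUP37 a single GM07029 culture at 0.23 lies apart from the other 2 of its line.

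The number of members called in the ratio between lines rested on single cultures. The 7 pore proteins became 2 without GM10835 replicate 3, 4 without GM10835 replicate 2 and 3 without GM12813 replicate 2. The 4 receptors became 9 without GM07029 replicate 1, 0 without GM10835 replicate 3, and 2 without GM10835 replicate 1 or any of the 3 GM12813 replicates. At 0 receptors by limma, 5 had an unadjusted p under 0.05. Over all clusters the same leave-outs gave between 1808 and 5065 calls, against 3595 with all cultures. The ratio of the median pore protein had an SD of 0.14 over duplicate arrays, 0.13 over the cultures of 1 line and 0.24 over the 7 lines. For receptors these SDs were 0.14, 0.13 and 0.20, against 0.14, 0.16 and 0.26 for the median tested cluster.

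Genes of the same pathway that carry other names, listed with earlier results of these data known, ranged from -1.73 to 1.59. Of 30 listed, 17 had a tested cluster, and of these 7 were lower, 5 were higher and 5 did not pass, with a median of -0.11 over 7 lines. These are 41.2% lower and 29.4% higher, against 31.7% and 31.7% of all tested clusters. NDC1, a membrane nucleoporin, was lowest at -1.73 ± 0.47 (limma adjusted p = 2e-06), followed by CSE1L, the exportin that returns importin alpha to the cytoplasm, at -1.09 ± 0.23, AAAS at -0.78 ± 0.28 and GLE1, an activator of messenger RNA export, at -0.76 ± 0.21. Highest were MCM3AP, the scaffold of the TREX-2 export complex, at 1.59 ± 0.28, RAE1, a messenger RNA export factor that binds NUP98, at 1.40 ± 0.31, RANGAP1, the activator of the Ran GTPase, at 1.09 ± 0.31, and TPR, the filament protein of the nuclear basket, at 0.91 ± 0.47. RAN itself averaged -0.02 ± 0.19 and did not pass (limma adjusted p = 0.813), and RANBP2 was not analysed here.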

How the data were processed

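Nascent and total RNA of 13 cultures were measured on 32 human exon arrays. The values used were the log2 signals per transcript cluster that the authors deposited. Affymetrix Power Tools and the genome build hg18 are named per the submitters' processing notes, whereas for background correction, normalization and summary the method is not given in the sources used. If nascent and total arrays were normalized separately, the offset between the fractions carries no information, which is why ratios were centred. Gene symbols came from the platform annotation, where 14405 clusters had a single symbol, 2365 several and 5018 none.

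Technical duplicates were averaged. Nascent minus total log2 signal was taken within a culture, since the series' design text states that both came from the same culture, and centred on the median tested cluster. Line means over 7 lines were tested against 0, and 9 cultures of 3 lines with a moderated F test and pairwise contrasts, two-sided, with limma 3.58.1 in R 4.3.3 (eBayes with a trend, Benjamini-Hochberg over 14167 clusters, threshold 0.05). The fits were tested on simulated data. The number of arrays limits the precision. Nascent and total deviations of a culture correlated between -0.31 and 0.58, and ratio deviations of same-numbered cultures of different lines between -0.43 and 0.20, so replicate numbers were not used as a block.

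The members and all gene lists were chosen with earlier results of these data known. Every member could be named; values by line or culture were given for the 6 highest and 6 lowest ratios called with 1 sign in all lines, for the 6 widest called ranges between the 3 lines in each measure, and for KPNB1, KPNA2, XPO1, TNPO1, NUP98, NUP153, NUP62 and NUP107, and the other pathway genes were named by the 4 highest and 4 lowest called ratios, with RAN, RANBP2, TPR and CSE1L added. Alternatives changed the centring, normalization, filter, pairing, trend, variance model, duplicates and replicates. A comparison of all clusters of a gene was void, as each member had a single cluster. Protein sequence features were not analysed here.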

Additional observations from a re-analysis of the deposited data

Results flagged for a closer look

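In 9 of 111 sets of 7 line values a single line stood far from the nearest other line relative to the whole range, and chance gives about 1 in 20. GM10835 was the line in 7 of them. Its total signal stood apart and low for NUP153 (9.59), NUP214 (8.71), NUP58 (9.89), NUP98 (9.25) and XPO4 (8.77), and high for NUP37 (9.85), and its ratio stood apart and high for KPNA6 (0.087). The other 2 were high total signals of IPO8 in GM07029 (9.09) and of XPO6 in GM12815 (11.24), a line with a single culture. The 111 sets are not independent, as the ratio is nascent minus total signal. The share of all clusters flagged by this rule was not determined, so no excess over chance is read from the 9.

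The ratio differed between GM12813, GM10835 and GM07029 for 11 members by limma's moderated F test, with ranges of line means on the log2 scale of 0.80 for NUP37, 0.67 for KPNA5, 0.63 for NUP210, 0.57 for NUP54, 0.57 for NUP93, 0.55 for NUP153, 0.50 for NUP88, 0.50 for IPO8, 0.46 for KPNA6, 0.44 for NUP42 and 0.40 for XPO6. Cultures of the highest and the lowest line did not overlap for any of the 11, which the test had picked on these same cultures. Members that were not called, such as XPOT and IPO13, showed no overlap either, and the share over all clusters was not determined.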

How the results depend on the processing

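Centring set the directions over 7 lines. Without it the median of all clusters was 0.77, the pore median 0.50 and the receptor median 0.51, with 11 pore proteins higher and 2 lower, 15 receptors higher and 1 lower, and 12 other pathway genes higher and 2 lower. Of all 14167 tested clusters, 11639 were higher and 762 lower without centring. The single genes whose sign turned were NUP133 (0.13), NUP214 (0.55), NUP35 (0.48), NUP37 (0.52), NUP42 (0.67), NUP43 (0.52), NUP50 (0.52), NUP54 (0.21), NUP88 (0.56), NUP93 (0.77), NUP98 (0.49), IPO4 (0.56), IPO5 (0.73), IPO8 (0.36), IPO9 (0.27), KPNA1 (0.26), KPNA3 (0.71), KPNA5 (0.27), KPNA6 (0.51), TNPO1 (0.40), XPO5 (0.69), XPO6 (0.27), XPOT (0.21), GLE1 (0.014), SEH1L (0.059), SEC13 (0.53), RANBP3 (0.54), NXT1 (0.62), NUTF2 (0.67) and RAN (0.75), and removing the trend with signal turned NUTF2 (0.30) and moved the pore minus receptor median to -0.17. With nascent and total arrays unpaired, without the replicate block of the culture, 0 pore proteins (limma) and 1 receptor were higher and the pore median was -0.42, with a median of -0.15 over all clusters. This setting also centred each fraction on its own median, so the loss of pairing and the moved zero point cannot be told apart. When both fractions had to exceed background, 7 of the 17 pore proteins kept were lower, with ratios recentred on the 12554 clusters left. Leaving out each line gave 8 to 12 lower pore proteins. Between the 3 lines the ratio called 2279 clusters with a plain F test, 2012 with no filter, 2142 with first arrays only, and 1808 to 5065 with a culture left out. It called 3 pore proteins and 2 receptors with no filter and with first arrays only, 2 to 9 pore proteins and 0 to 9 receptors with a culture left out. With replicate number as a replicate block it called 2458 clusters, 6 pore proteins and 2 receptors. The labels do not say whether same-numbered cultures of different lines share more than the number. Nascent RNA called 7 pore proteins with no filter. The causes were not tested. Counts of members lower in GM10835 stayed within 1.5 times in all settings. Of the 2 alternatives chosen after seeing the data, leaving out the first arrays of GM12813 culture 3 kept every count above within 1.5 times, and leaving out NUP62CL put the pore minus receptor median at 0.0047, on the other side of 0, while leaving out each line gave -0.07 to 0.01.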

Other observations

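Proliferation genes were given beside the line differences. Of 22 tested, 12 had a lower ratio over 7 lines, 6 a higher one and 4 did not pass in limma, with a median of -0.22. These are 54.5% lower and 27.3% higher, against 31.7% and 31.7% of all tested clusters. Lowest were BUB1, a kinase of the spindle checkpoint, at -1.35 ± 0.35 and TOP2A, the topoisomerase of mitotic chromosomes, at -1.12 ± 0.53 (SD, n = 7). Highest were KIF2C at 1.67 ± 0.14 and AURKB at 1.25 ± 0.07. Of the called genes, 2 lay at least 1 log2 unit below the median cluster and 4 at least 1 above it.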
